A study of Macaca fascicularis with 6 samples.

Results

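The cells described here are the COL1A1-only cells of cyFT, the fibrous tissue that had grown into knee cartilage defects of cynomolgus monkeys left without a transplant. A cyFT cell was counted as COL1A1-only when it held at least 1 COL1A1 read and no COL2A1 read, and 170 of the 320 cyFT cells met this rule, out of 1280 cells of the same matrix and 7007 cells of the series. Of the other 150 cyFT cells, 84 held COL2A1 only, 33 held both collagens and 33 held neither.

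The study followed cartilage made from EGFP-labelled cynomolgus iPS cells (cyiPS-Cart) before and after allogeneic transplantation into chondral defects, and measured single-cell RNA by TAS-Seq in the iPS cells, in cyiPS-Cart before and after transplantation, in cyFT and in native joint cartilage (cyAC). The cyFT and cyAC cells came from wild type monkeys aged 3 to 4 years, 4 months after surgery, and were sequenced in 1 library in which an antibody tag told the tissues apart. The cyFT defects had received nothing, and how many animals entered the tissue sample was not named; the methods give 3 monkeys per group at this time, with 2 sites of each combined. There was therefore 1 sample per tissue, so that no comparison below has a test across animals, and intervals cover counting error only.

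Type I collagen, made from COL1A1 and COL1A2, is the main fibre of scar, tendon and fibrocartilage, whereas type II collagen, made from COL2A1, is the main fibre of hyaline cartilage. Repair tissue in a chondral defect that forms without added cells is usually fibrous, and its fibroblasts lay down types I, III and V collagen with glycoproteins such as tenascin C. Chondrocytes lay down types II, IX and XI collagen with aggrecan, and switch toward a type I programme when they lose their phenotype.

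The COL1A1-only cells made up 53.1% of the cyFT cells (95% Clopper-Pearson interval 47.5 to 58.7). Because COL1A1 and COL2A1 chose the cells, their levels are a description. COL1A1 ranged from 81 to 3682 reads per member cell with a median of 682.5, and the 5 lowest members held 81, 84, 92, 108 and 122 reads. Just outside the rule, the cells with both collagens that held the fewest COL2A1 reads had 211, 218, 244, 251 and 257 of them. The lowest non-zero COL1A1 value in the library was 76 reads and that of COL2A1 was 211 reads. The methods describe a background correction that sets low counts of abundant genes to 0, and its part in these limits was not tested. A listed 0 of an abundant gene can therefore stand for a low count.

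**Figure D1:**
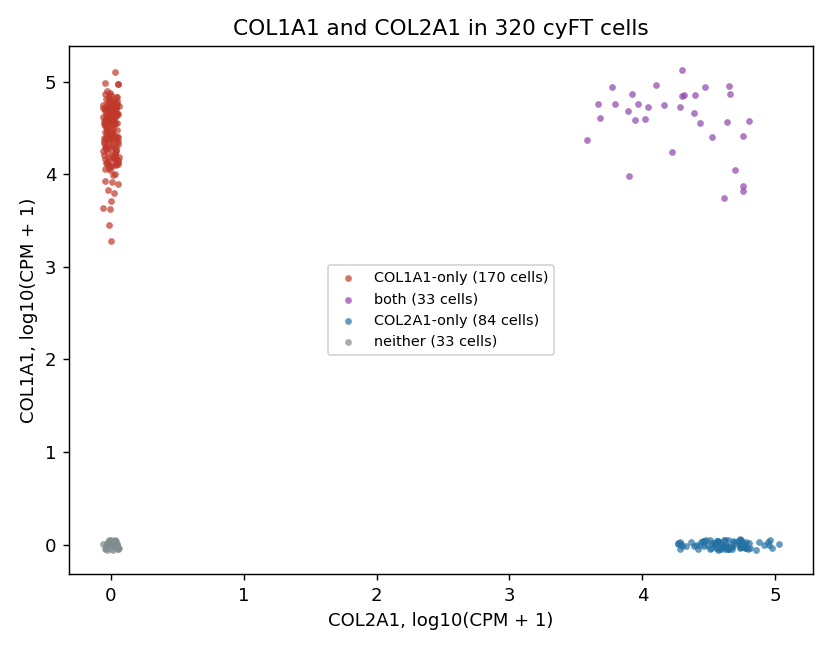
COL1A1 (vertical axis) against COL2A1 (horizontal axis) in the 320 cyFT cells, each as log10 of CPM (reads of a gene per 1000000 reads of the cell) plus 1, with a small random offset so that cells at 0 can be seen; each point is 1 cell and colours are the 4 classes. The 170 COL1A1-only cells lie at 0 on the COL2A1 axis and the 84 COL2A1-only cells at 0 on the COL1A1 axis.

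The COL1A1-only cells were the shallowest class of the tissue. They held 7460 to 104685 reads with a median of 21830, and a median of 1992 genes, whereas the other cyFT cells had medians of 39333 reads and 2799 genes. The COL2A1-only cells had a median of 47803 reads. Mitochondrial genes took a median of 4.23% of the reads of a COL1A1-only cell, 2.72% of a COL2A1-only cell and 6.21% of a cell with neither collagen. Levels below are CPM of the reads summed over the cells of a class, and shares of cells with a read are given for some genes also after every cell was thinned to 10952 reads. EGFP was listed at 0 in all 170 cells, and it had reads in 320 of 320 cells of pre-transplant and of post-transplant cyiPS-Cart. No cell number was shared between the libraries or between cyFT and cyAC, and a doublet caller marked 1 COL1A1-only cell and 1 other cyFT cell.

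The label of fibroblast was checked against its markers. COL1A2, the partner chain of COL1A1, had reads in all 170 cells, ranging from 1922 to 88465 CPM per cell with a median of 32110. TNC, which encodes tenascin C, had reads in 162 of 170 cells (95.3%, 90.9 to 97.9). Over the 13 fibroblast markers compared (COL1A1 left out), 10 were higher in COL1A1-only cells, 1 was lower and 2 were within the fold; 3 of the 10 (POSTN, PDGFRB and DPT) reached 50 CPM only in the COL1A1-only cells. PDGFRA, a receptor of many fibroblasts, had reads in only 10.0% of them, and POSTN, which encodes periostin, in 7.65%. Other classes shared fibroblast markers. The median COL1A1-only cell held 10 of 14 (COL1A1 left out). The median was 9 in cells with both collagens, 7 in COL2A1-only cells and 5 in cells with neither. After thinning these 4 medians were 10, 9, 6 and 4. Chondrocyte markers were also present in the COL1A1-only cells, with a median of 7 of 10 such genes per cell (COL2A1 left out). The COL2A1-only cells held 10 of 10, and after thinning the medians were 7 and 9. The cells are therefore called by their rule and not by a cell type.

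Between COL1A1-only cells and the other cyFT cells, 3725 genes reached 50 CPM in either group. Of these, 419 were at least 2-fold higher (11.2%) and 360 at least 2-fold lower (9.66%) in the COL1A1-only cells, on the log2 scale of CPM plus 1, and the median log2 ratio of all 3725 genes was 0.20. A gene that reached 50 CPM in only 1 of the groups could pass only toward that group, which held for 275 of the 419 higher and 221 of the 360 lower genes, and counts of list genes below carry this limit. With TMM scaling, which moved that median to -0.01, 292 genes were higher and 448 lower, so that the higher and lower calls were split the other way. Against the COL2A1-only cells alone, 726 of 3728 genes were higher (19.5%) and 414 lower (11.1%). Counts of list genes below are to be read beside the shares of 11.2% and 9.66% over all genes.

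Nearly all collagens of fibrous tissue were higher in the COL1A1-only cells. Of 10 fibrous collagen genes compared (COL1A1 left out), 9 were higher and none lower, with a median log2 ratio of 2.20 against 0.20 over all genes, and 2 of the 9 (COL5A3 and COL8A1) reached 50 CPM only in the COL1A1-only cells. Over the alternative settings and comparison cells this median ran from 0.22, against the cells with both collagens, to 4.26, against the COL2A1-only cells. COL1A2 was at 33755 CPM (exact Poisson interval 33583 to 33929) in the COL1A1-only cells and at 8365 CPM in the other cells, a log2 ratio of 2.01. In the COL2A1-only cells it had reads in 1 of 84 cells. COL3A1, the type III collagen of young repair tissue, was at 19711 against 4143 CPM (log2 2.25), and it had a read in every COL1A1-only cell and in 149 of the 150 others, so that these groups differed in level rather than in presence. The type V chains COL5A1 and COL5A2, which start type I fibrils, had log2 ratios of 2.14 and 2.28, and the fibril-associated COL12A1 and COL14A1 had 2.02 and 2.68. COL16A1 was the exception, with a log2 ratio of -0.13.

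Cells that held both collagens carried more of some of these genes and less of others. COL1A2 was at 47333 CPM and COL5A2 at 2421 CPM in them, against 33755 and 2264 CPM in the COL1A1-only cells. Elastin (ELN) was at 1142 CPM in the cells with both collagens and at 372 CPM in the COL1A1-only cells. COL6A3 and COL5A3 were lower in the cells with both collagens, at 295 and 27.9 CPM against 1114 and 75.5 CPM. The higher level of COL1A2 therefore did not set the COL1A1-only cells apart from every other class of the tissue.

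**Figure D2:**
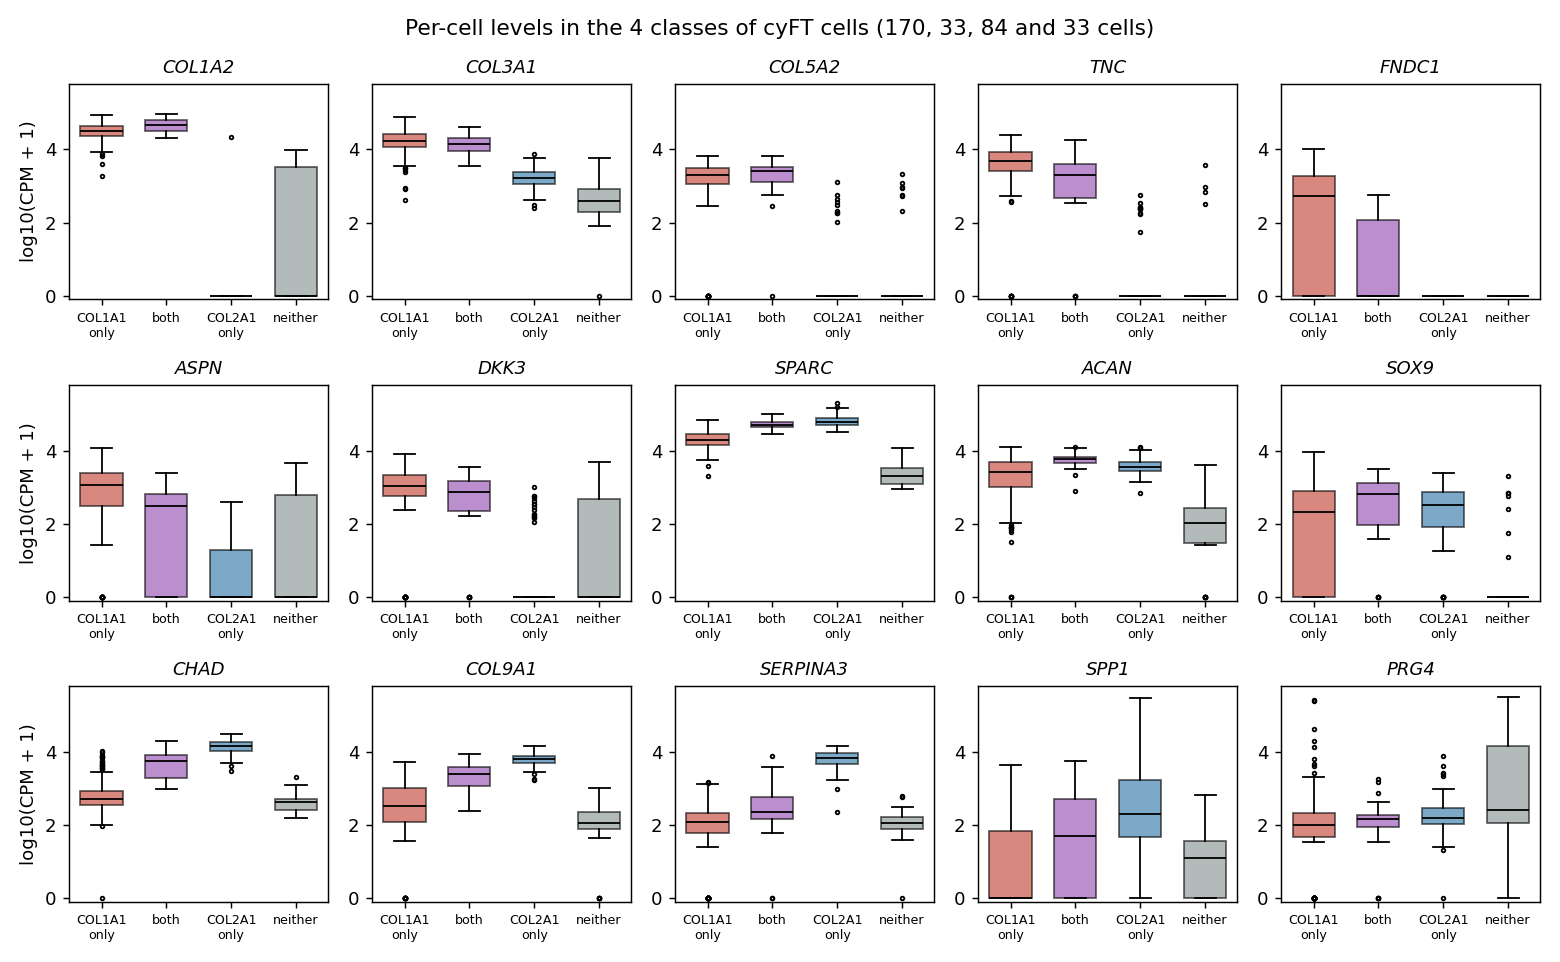
Per-cell levels of 15 genes, as log10 of CPM plus 1 (vertical axis), in the COL1A1-only cells (170), cells with both collagens (33), COL2A1-only cells (84) and cells with neither (33); boxes span the quartiles, the line is the median, whiskers reach 1.5 times the box and points lie beyond. TNC, FNDC1, ASPN and DKK3 have their highest medians in the COL1A1-only cells, CHAD, COL9A1 and SERPINA3 in the COL2A1-only cells, and the medians of ACAN and SOX9 differ by less than 2-fold between these 2 classes.

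The largest ratio among the genes read in at least 25% of the COL1A1-only cells was that of FNDC1. FNDC1, a secreted fibronectin type III protein, was at 1228 CPM against 15.4 CPM (log2 6.23), with reads in 100 of 170 COL1A1-only cells and in 10 of the 150 others. It had no read in the COL2A1-only cells or in the cells with neither collagen, and 90.5 CPM in the cells with both. MFAP5, a microfibril glycoprotein, was at 208 against 9.77 CPM (log2 4.28). DPT, which encodes dermatopontin, was at 175 against 8.43 CPM (log2 4.22), and PDGFRB, a receptor for platelet-derived growth factor found on stromal and mural cells, was at 249 against 13.0 CPM (log2 4.16). LAMB1, a laminin chain of basement membranes, had a log2 ratio of 3.69, and CDH11, a cadherin of mesenchymal cells, 3.24, which was 3.89 without the 1 other cell that held 39.4% of the CDH11 reads of the others. None of these 6 genes was present in every cell. All 6 reached 50 CPM only in the COL1A1-only cells and could be called in that direction alone. Of the 15 genes with the largest ratios, ANGPTL1, a secreted angiopoietin-like protein, had a log2 ratio of 4.23, ANTXR1, a collagen-binding surface receptor, 3.31, OLFML2B 3.13 and COL8A1 3.05, and the others are given with their lists. After thinning, FNDC1 had reads in 59.5% of the COL1A1-only cells and 5.52% of the others, and PDGFRB in 41.2% and 6.90%.

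TNC itself was at 5532 CPM against 593 CPM, a log2 ratio of 3.22. Its per-cell level ranged from 0 to 24995 CPM with a median of 4739 CPM. In the COL2A1-only cells 10 of 84 held a TNC read, which gives the share of cells with a read in a class of cartilage-type cells.

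The members of the matricellular list, glycoproteins that modulate how cells contact matrix, did not move together. Of 14 compared, 6 were higher and 5 lower, with a median of 0.37. The higher ones included VCAN, a hyaluronan-binding proteoglycan, at 710 against 77.8 CPM (log2 3.17), THBS2 (2.67) and TGFBI at 1675 against 639 CPM (1.39, but -0.0044 against the cells with both collagens). SPARC, which binds collagen and calcium, was lower at 21658 against 55567 CPM (log2 -1.36) although it was read in all cells of both groups. SPP1, which encodes osteopontin, was also lower (log2 -4.26, or -3.14 without the 1 COL2A1-only cell that held 54.5% of the SPP1 reads of the other cells), as were THBS1 (-3.38), CCN2 (-2.97) and CCN1 (-1.91). FN1, which encodes fibronectin, was at 13990 against 10987 CPM (log2 0.35). POSTN had the largest ratio of the list (5.19) at 94.7 CPM, but its reads came from 13 of 170 cells.

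Of the elastic fibre and microfibril genes 10 were compared, but 5 of the 6 that were higher (FBN1, FBLN2, FBLN5, MFAP4 and MFAP5) reached 50 CPM only in the COL1A1-only cells and could be called in that direction alone, so that no median is given. FBN1, the fibrillin that builds microfibrils, was at 261 against 49.9 CPM (log2 2.37), and FBLN5, which links elastin to cells, at 117 against 7.40 CPM (3.82). ELN and LTBP1, the latter a carrier of latent TGF-beta, did not reach the fold, at log2 ratios of 0.54 and -0.50.

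Small leucine-rich proteoglycans, which coat collagen fibrils, were mixed. ASPN (asporin) was at 1867 against 169 CPM (log2 3.46) and had reads in 153 of 170 COL1A1-only cells, and OGN (osteoglycin) was at 2577 against 532 CPM (2.28). DCN (decorin) was at 2402 against 4842 CPM (log2 -1.01, or -0.99 without 1 COL2A1-only cell). BGN, FMOD and LUM had log2 ratios of 0.36, 0.26 and 0.41.

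**Figure D3:**
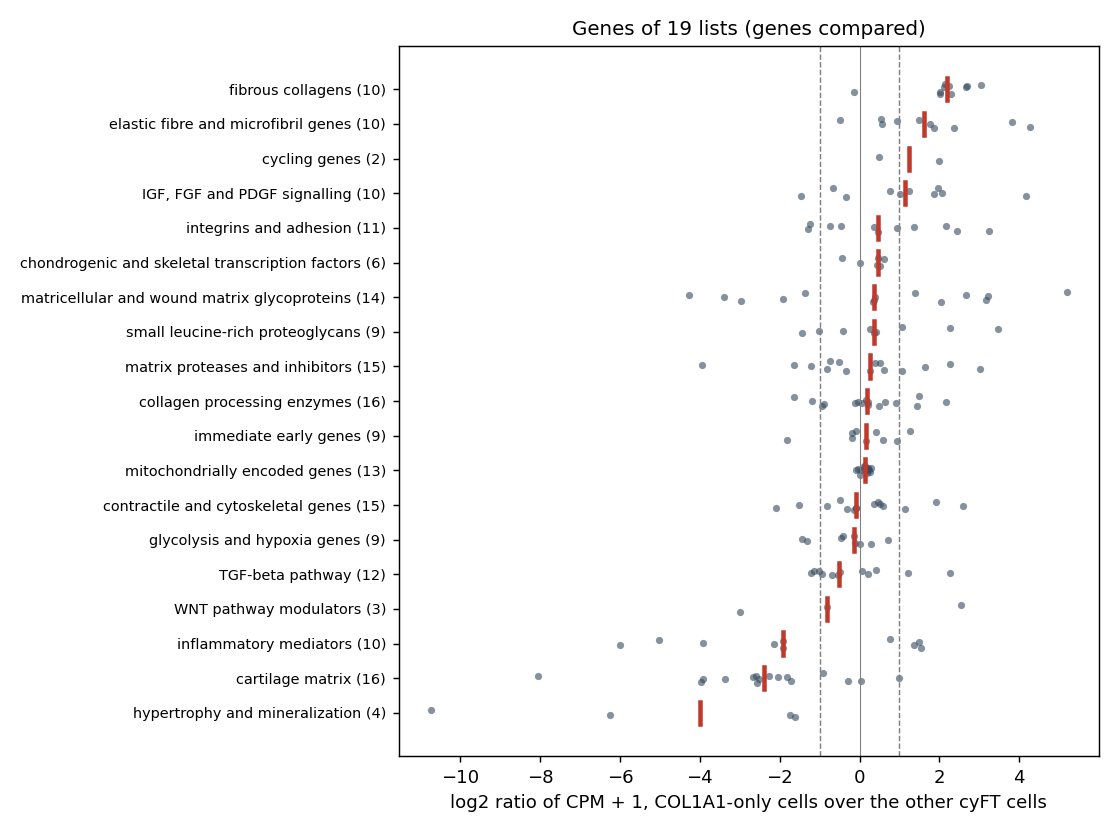
log2 ratios of CPM plus 1 (horizontal axis), COL1A1-only cells over the other cyFT cells, for the genes of 19 lists (number compared in brackets); each point is 1 gene, the red bar is the list's median and dashed lines mark a 2-fold difference each way. Of the fibrous collagens 9 of 10 lie beyond the line for higher genes, and of the cartilage matrix genes 12 of 16 lie beyond the line for lower genes. The bars of the elastic fibre, hypertrophy, inflammatory and cycling lists rest in part on genes that reached 50 CPM in 1 group alone.

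Cartilage matrix genes were lower as a group than in the other cyFT cells together, but by very different amounts. Of 16 compared (COL2A1 left out), none was higher, 12 were lower and 4 were within the fold, with a median of -2.40. Over all genes 9.66% were lower, and the median was 0.20. MATN3 and CNMD, 2 of the 12, reached 50 CPM only in the other cells. Most of the other cells held COL2A1, but those with neither collagen were lower still in the 11 measured chondrocyte markers. These summed to 1224.3 CPM there and to 7730.5 CPM in the COL1A1-only cells, with COL2A1 at 0 in both. CHAD, which encodes chondroadherin, was at 1142 against 11851 CPM (log2 -3.37), COL9A1 of type IX collagen at 768 against 4872 CPM (-2.66) and COL11A1 of type XI collagen at 1134 against 3750 CPM (-1.72). CNMD, which encodes chondromodulin, had 22 reads in all, from 2 of 170 cells (63.6% of them from 1 cell), against 1611 CPM and 90 of 150 cells in the others (log2 -8.05). ACAN, the core protein of aggrecan, was hardly lower, at 2963 against 3624 CPM (log2 -0.29), with reads in 166 of 170 cells.

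The ratio of the level in the COL2A1-only cells to that in the COL1A1-only cells was 0.279 for MATN2 and 0.516 for CILP2, which were higher in the COL1A1-only cells. It was 1.32 for ACAN, 2.07 for SCRG1, 8.61 for COL9A1 and 14.2 for CHAD, and it was highest of the list, at 468, for CNMD. The part of free RNA in the low levels was not tested. CHAD was read in 169 of the 170 COL1A1-only cells, at a median of 521 CPM per cell against 10105 CPM in the other cyFT cells.

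Transcription factors of the skeleton did not differ by the fold in either direction. None of 6 compared was higher or lower, with a median of 0.45, where 11.2% of all genes were higher and 9.66% lower. SOX9, the factor that directs chondrocyte fate, was at 556 against 554 CPM (log2 0.01), with reads in 71.8% of the COL1A1-only cells and 73.3% of the others (65.4% and 69.0% after thinning). PRRX1, a factor of limb mesenchyme, was at 86.2 against 62.0 CPM (log2 0.47).

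Genes of hypertrophic cartilage and mineralization were low in the COL1A1-only cells. Of 4 compared, IBSP and ALPL reached 50 CPM only in the other cells, so that no median is given. IBSP, which encodes bone sialoprotein, had no read in the 170 cells and 1709 CPM in the other cyFT cells; its lowest non-zero value in the library was 22 reads, so that the 0 gives no fold. MEF2C, a factor of hypertrophy, was at 95.6 against 295 CPM (log2 -1.61), and PTH1R, the parathyroid hormone receptor, at 83.6 against 281 CPM (-1.73), but against the COL2A1-only cells of cyAC these ratios were -0.006 and -0.04. In the COL1A1-only cells, ALPL, the phosphatase of mineralizing cells, had 1 read in all.

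Among the secreted factors lower in the COL1A1-only cells, SERPINA3, an acute-phase protease inhibitor, was at 170 against 4480 CPM (log2 -4.71). FGFBP2 was at 12.5 against 1341 CPM (log2 -6.64, with 50.0% of its COL1A1-only reads in 1 cell), and LIF, a cytokine of the IL-6 family, at 15.2 against 383 CPM (-4.56). FRZB, a WNT antagonist of cartilage, was at 491 against 3938 CPM, whereas another WNT modulator, DKK3, was at 1521 against 259 CPM (log2 2.55). The other 11 of the 15 genes with the lowest ratios were GBP3 (-5.79), OMA1 (-5.78), DUSP2 (-5.62), EFHD1 (-5.11), PHOSPHO1 (-4.90), SCIN (-4.86), AGT (-4.75), SLC14A1 (-4.59), SEMA7A (-4.55), IFI30 (-4.54) and IGSF11 (-4.41). PHOSPHO1 is a phosphatase of matrix mineralization and SLC14A1 a urea transporter, and IFI30, a lysosomal enzyme of antigen-presenting cells, was at 1989 CPM in the cells with neither collagen and at 26.1 CPM in the COL2A1-only cells. Of the AGT reads in the COL1A1-only cells, 64.7% came from 1 cell, without which its log2 ratio was -5.79. Of 3 WNT modulators compared 1 was higher, 1 was lower and 1 was within the fold.

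Of 10 genes of growth factor signalling compared, 6 were higher and 1 lower, where 11.2% of all genes were higher and 9.66% lower. PDGFRB, 1 of the 6, reached 50 CPM only in the COL1A1-only cells. The median was 1.13 and ran from 0.01 to 2.69 over the alternatives. The binding proteins IGFBP5 and IGFBP6 were at 726 against 171 CPM (log2 2.07) and at 1358 against 347 CPM (1.96). FGFR3, a receptor of growth plate chondrocytes, was lower (log2 -1.46). In the TGF-beta pathway 2 were higher and 3 lower of 12 compared, with a median of -0.52. TGFB3, a TGF-beta ligand, was at 191 against 38.8 CPM (log2 2.27), while TGFB1 was at 139 against 306 CPM (-1.13) and the inhibitor SMAD7 at 113 against 265 CPM (-1.22, but 0.28 against the cells with both collagens).

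Of 15 matrix proteases and inhibitors compared, 4 were higher and 3 lower, with a median of 0.26. MMP2 and MMP14, a gelatinase and the membrane protease that activates it, had log2 ratios of 3.03 and 2.28, and CTSK, a collagen-cleaving cathepsin, 1.65. MMP3 had a log2 ratio of -1.22. CTSB was lower than in all other cells together (log2 -1.65), but at 237 CPM it was above the 110 CPM of the COL2A1-only cells and far below the 3731 CPM of the cells with neither collagen. Of 16 enzymes that process collagen, 11 were within the fold, with a median of 0.19, and over all genes 2946 of 3725 were within it. The 3 higher genes, LOXL1, a crosslinking enzyme (2.16), BMP1, which trims procollagen, at 69.1 against 23.8 CPM, and ADAMTS2, reached 50 CPM only in the COL1A1-only cells, and PCOLCE2 was lower (-1.64).

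Of the integrins that bind collagen, ITGA1 and ITGA11 had log2 ratios of 2.44 and 2.16, and ITGA10, the collagen receptor of chondrocytes, was lower (-1.29). Of 11 adhesion genes compared, 4 were higher and 2 lower, but 3 of the 4 (ITGA1, ITGA11 and CDH11) reached 50 CPM only in the COL1A1-only cells. Of 15 contractile and cytoskeletal genes, 3 were higher and 2 lower, with a median of -0.09, and 2 of the 3 (ACTA2 and MYL9) reached 50 CPM only in the COL1A1-only cells. ACTA2, which encodes the smooth muscle actin of myofibroblasts, was at 108 against 17.02 CPM (log2 2.60), but it had reads in only 15.3% of the COL1A1-only cells (10.5% after thinning) and 26.1% of its reads came from 1 cell. TAGLN, a second contractile marker, was at 404 against 568 CPM (log2 -0.49), but its ratio was 2.16 against the COL2A1-only cells of cyAC and 2.22 against the cells with both collagens.

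Glycolysis and hypoxia genes had 0 higher and 2 lower of 9 compared, and 9 immediate early genes had 1 of each. FOS, the higher one, was at 2860 against 1180 CPM (log2 1.28, but -0.32 against the cells with both collagens), and its share of cells with a read was 44.1% against 46.7% (43.1% against 46.9% after thinning). All 13 mitochondrially encoded genes lay within the fold, with a median of 0.14.

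The list of inflammatory mediators had 3 higher and 6 lower of 10 compared, but 4 of the 6 (CXCL8, CXCL1, CCL2 and TNFAIP3) reached 50 CPM only in the other cells and PTGES, 1 of the 3, only in the COL1A1-only cells. The filter fixed the sign of these genes, so that no median is given. CCL2, CXCL8 and CXCL1, which encode chemokines, had log2 ratios of -5.01, -6.00 and -3.93 and were read in 1, 2 and 4 of the 170 COL1A1-only cells. The cells with neither collagen held CCL2 at 4408 CPM and CXCL8 at 2871 CPM. The higher genes were PTGES, a prostaglandin synthase, with 1.37, TNFAIP6, which binds hyaluronan, with 1.49, and CHI3L1, a secreted chitinase-like protein, with 1.54.

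Macrophage and endothelial markers were near 0 in the COL1A1-only cells. The 7 measured macrophage markers summed to 28.6 CPM in these cells, 45.5 CPM in the COL2A1-only cells and 6114 CPM in the cells with neither collagen, and C1QA, C1QC and CSF1R had no read in the COL1A1-only cells. At least 3 macrophage markers were found in 15 of the 33 cells with neither collagen and in none of the 170 COL1A1-only cells. The 6 macrophage markers that could be compared reached 50 CPM only in the other cells, so that no count or median is given for them. The 7 endothelial markers summed to 4.85 CPM and the 7 pericyte and smooth muscle markers to 67.0 CPM against 58.6 CPM in the other cells, with CSPG4 at 38.8 and MCAM at 13.4 CPM. The part of the macrophage-marked cells alone in the ratios against the other cyFT cells was not tested. Without the class that holds neither collagen, 624 genes were higher and 347 lower. Of the named genes compared there, 156 stayed on the same side of the fold, 14 passed it, 1 fell inside it and 1 (CTSB) turned.

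The 3 synovial sublining markers compared were THY1, a surface glycoprotein of stromal cells, at 548 against 115 CPM (log2 2.24), DKK3, described above, and CD34, a surface protein of stromal and vascular progenitors, at 59.6 against 5.62 CPM (3.19), which reached 50 CPM only in the COL1A1-only cells. At least 3 of the 6 sublining markers were found in 25.9% of the COL1A1-only cells (24.2% after thinning) in 0 of the 84 COL2A1-only cells, in 5 of the 33 cells with both collagens (1 of 31 after thinning) and in 2 of the 33 with neither. CXCL12 had 1.62 CPM, and GGT5 was not read in the tissue.

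The 5 measured synovial lining markers summed to 7821 CPM in the COL1A1-only cells and 8421 CPM in the other cyFT cells, and none of 5 compared was higher, 1 was lower and the median was -0.45. Most of that sum was PRG4, described below with its single cells, beside CD55 at 760 and HBEGF at 460 CPM. At least 3 of these markers were found in 58.2% of the COL1A1-only cells and 89.3% of the COL2A1-only cells, and after thinning in 44.4% and 51.2%. The 5 tendon and ligament markers summed to 1256 CPM against 780 CPM in the others, with THBS4 at 779 against 598 CPM and TPPP3, a tubulin-binding protein of tendon sheath cells, at 451 against 139 CPM (log2 1.69). TNMD, a defining tendon marker, had no read, and MKX, a tendon transcription factor, was at 3.00 CPM. At least 3 of these markers were found in 4.71% of the COL1A1-only cells and 14.3% of the COL2A1-only cells, and after thinning in 2.61% and 5.95%.

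Only part of the difference held against each class separately. Of the 419 genes higher than in the other cyFT cells, 399 were at least 2-fold higher than in the COL2A1-only cells (background 19.5% of 3728 genes). The number was 217 against the cells with both collagens (background 16.2% of 3700 genes) and 230 against the cells with neither (17.4% of 4204). Against all 3 classes 83 passed. The share of all genes that passed against all 3 was not counted, so the 83 is not read as many or few. These counts are a description, since the genes were chosen against the pool of these same cells. Those 83 included FNDC1, MFAP5, DPT, PDGFRB, LAMB1, COL6A3, MMP2, ASPN and CDH11. COL6A3, a chain of the microfibrillar type VI collagen, was at 1114 CPM against 275, 295 and 136 CPM in the COL2A1-only cells, the cells with both and the cells with neither. Of the 360 lower genes, 320 were at least 2-fold lower than in the COL2A1-only cells (background 11.1%). The number was 98 against the cells with both collagens (background 5.78%) and 143 against the cells with neither (19.1%). Against all 3 classes 19 passed, again without a share over all genes beside it.

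The same rule found few cells in the other tissues, namely 16 of 320 in cyAC, 19 of 320 in pre-transplant cyiPS-Cart and 7 of 320 in post-transplant cyiPS-Cart. The last 2 came from other libraries, and their values stand beside those of cyFT without a comparison. TNC was at 5532 CPM in cyFT and at 6146 CPM in the COL1A1-only cells of cyAC, where 15 of 16 cells held it, and FNDC1 was at 1228 and 1063 CPM. In pre-transplant and post-transplant COL1A1-only cells, TNC was at 2088 and 6660 CPM and FNDC1 at 802 and 1070 CPM. ASPN was at 1867 CPM in cyFT, 3168 CPM in cyAC, 152 CPM before and 1457 CPM after transplantation. SERPINA3 was at 170 CPM in cyFT and 871 CPM in cyAC.

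Among themselves, the COL1A1-only cells shared a small set of genes. Of 3322 genes at 50 CPM or more, 38 had a read in all 170 cells, 188 in at least 90% and 998 in at least 50%, while 597 were read in fewer than 25%. The genes with the most reads were COL1A1, COL1A2, SPARC, COL3A1, FN1, BGN, VIM, CLU, COX2 and FMOD. The coefficient of variation (CV) of per-cell CPM was 0.59 for COL1A1, 0.49 for COL1A2, 0.50 for SPARC, 0.64 for COL3A1 and 0.79 for TNC, and the median CV over the 3322 genes was 2.17. Counting error alone raises the CV of genes with few reads, so CVs of genes at unlike levels are not compared.

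**Figure D4:**
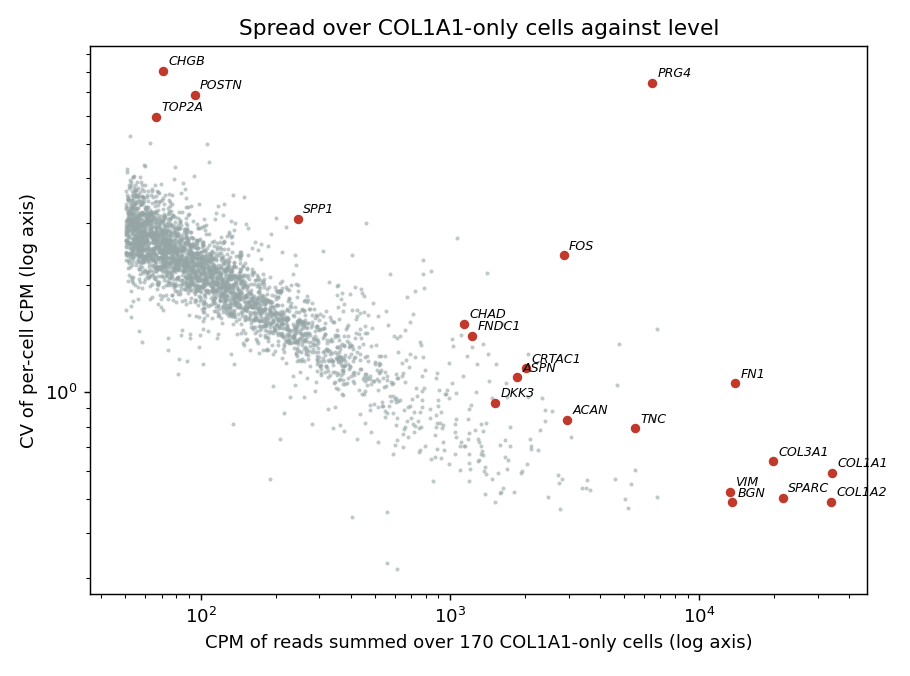
Coefficient of variation of per-cell CPM (vertical axis, log scale) against CPM summed over the 170 COL1A1-only cells (horizontal axis, log scale) for 3322 genes, each a grey point, with selected genes in red. PRG4 lies far above genes of like level with a CV of 7.45, while COL1A1, COL1A2, SPARC and COL3A1 lie between 0.49 and 0.64.

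PRG4, which encodes the joint lubricant lubricin, stood apart because of single cells. Its summed level was 6481 CPM in COL1A1-only cells and 6380 CPM in the others (log2 0.02), but the median COL1A1-only cell held 99.9 CPM. One cell gave 13315 reads, 47.5% of all PRG4 reads of the class, and the second gave 10550. In the others, 1 cell with neither collagen gave 47.2% of the PRG4 reads. Without that cell the log2 ratio was 0.93, without the first COL1A1-only cell it was -0.89, and without both COL1A1-only cells -2.69, so that its direction rested on single cells. PRG4 was at 36189 CPM in the cells with neither collagen and at 446 CPM in the COL2A1-only cells. The other 9 of the 10 most variable genes read in at least 20% of the cells were CHGB (CV 8.04), VIT (5.04), TMEM222 (4.38), TIMM50 (4.35), PTGS2 (4.30), GTF2H3 (4.17), TGIF1 (4.06), SPRY2 (3.99) and NBN (3.97), and 1 cell gave 54.3% of the CHGB reads, without which its log2 ratio against the other cyFT cells was -0.56 in place of 0.54. Proliferation genes also rested on few cells, with MKI67 read in 4 cells and TOP2A in 11 of the 170, and 49.1% and 39.9% of their reads in 1 cell.

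Across the 170 cells the level of COL1A1 was ranked most like that of its partner chain COL1A2. The highest Spearman correlations with COL1A1 were those of COL1A2 (0.87), SPARC (0.61), BGN (0.54), COL11A1 (0.47) and ELN (0.42), and the lowest were those of CRTAC1 (-0.49), S100A4 (-0.37), SPECC1 (-0.37), NBL1 (-0.31) and APLP2 (-0.31). All cells shared 1 library, and each per-cell total contained COL1A1 itself, so these values are descriptions over 998 genes. CRTAC1, a cartilage acidic protein, was nevertheless higher in COL1A1-only cells than in the others, at 2024 against 565 CPM, and S100A4, a calcium-binding protein used as a fibroblast marker, at 1227 against 278 CPM. Within the COL1A1-only cells these genes thus ran against COL1A1, although both were higher than in the rest of the tissue. COL1A1 itself had a correlation of -0.04 with reads per cell.

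Clustering of the COL1A1-only cells alone gave 2 groups that differed first in depth. Cluster 0 held 124 cells with a median of 17590 reads and 1765 genes, and cluster 1 held 46 cells with a median of 38365 reads and 2727 genes. The genes chosen by the clustering are a description and no test. PRG4 led cluster 1 (13909 against 366 CPM), but both cells with the most PRG4 reads lay there, and 1 of them gave 49.0% of its reads. In cluster 0, 1 cell gave 43.3% of the PRG4 reads. The median cell held PRG4 at 163 CPM in cluster 1 and at 86.6 CPM in cluster 0. CSF1, a macrophage growth factor, was at 136 CPM in cluster 1 and 15.2 CPM in cluster 0, with reads after thinning in 28.3% and 4.67% of cells. Cluster 0 was higher in SOD3, a secreted superoxide dismutase, at 946 against 308 CPM, FRZB at 745 against 183 CPM and CLEC3A, a cartilage lectin, at 1194 against 414 CPM. The part of depth in this split was not tested, and at a resolution of 0.2 all 170 cells fell into 1 cluster.

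**Figure D5:**
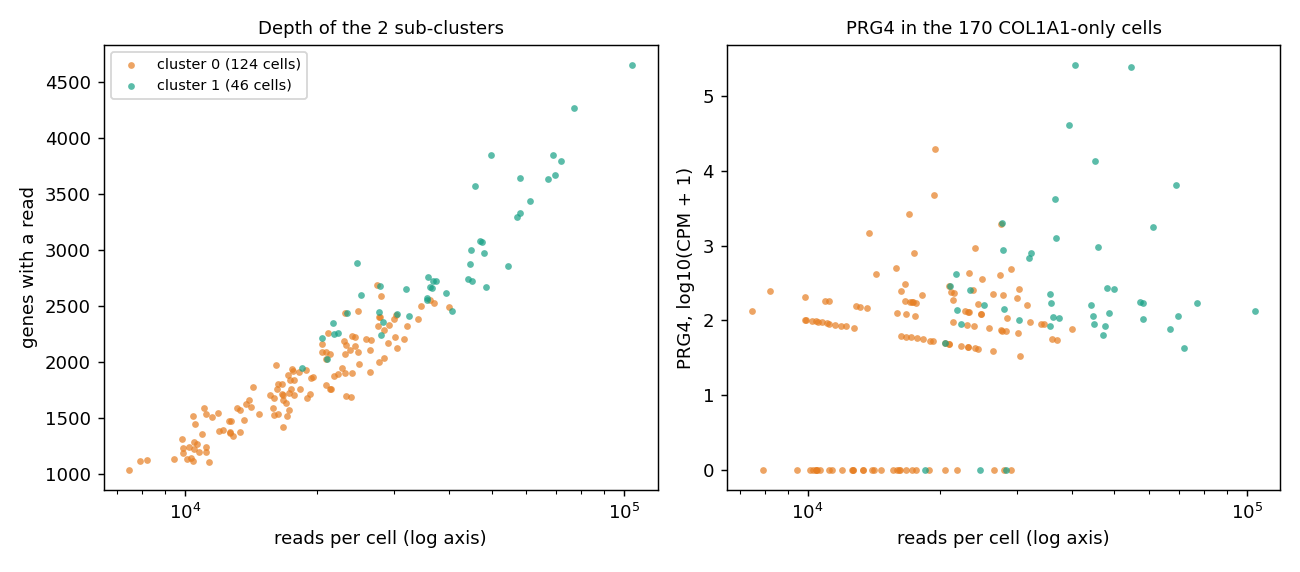
Left, genes with a read against reads per cell (log axis) in the 170 COL1A1-only cells, coloured by sub-cluster; right, PRG4 as log10 of CPM plus 1 against reads per cell. Cluster 1 (46 cells) lies at higher depth than cluster 0 (124 cells), and 2 cells of cluster 1 hold the highest PRG4 levels.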

How the data were processed

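TAS-Seq libraries of cynomolgus tissues were analysed from the deposited matrix of counts, which the authors made per gene and cell; the step from reads to counts names no molecular identifiers in the sources used here, so values are called reads. Per the labels, processing notes name cutadapt 3.4, Bowtie2 2.4.2, R 3.6.3 and GRCh38, whereas the methods name a cynomolgus transcript reference for the reads; only gene symbols were used here. The authors corrected background, and each sample of this matrix holds 320 cells. The tag of a cell gave its tissue. Members and gene lists were chosen with earlier results of these data known.

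Reads were summed per class, scaled to CPM, and compared as log2 of CPM plus 1 for genes that reached 50 CPM in 1 of the classes or more. Calls needed a log2 ratio of 1. Shares carry exact binomial (Clopper-Pearson) intervals and sums exact Poisson intervals, both 95%. Cells were thinned to 10952 reads, the 10th percentile of the COL1A1-only cells, which kept 153 of them and 145 others. Clusters used Seurat 5.3.0 (2000 features, 30 components, resolution 0.5), doublets scanpy 1.11.5 and TMM factors edgeR 4.0.16. No test was run, as there was 1 sample per tissue. The fold comparison was tested on simulated data. Genes were named from the 15 with the largest ratio each way among genes read in at least 25% of cells of the higher class, the 10 with most reads, the highest-level genes of each list, the most variable genes and those most correlated with COL1A1; further list genes were named after their values were seen.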

Additional observations from a re-analysis of the deposited data

How the results depend on the processing

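No paired analysis was possible because each tissue was 1 sample. Of 183 compared genes, 108 passed the fold and 63 of these kept their direction and side in every alternative that compared them. The higher count was 726 against COL2A1-only cyFT cells, 674 against COL2A1-only cyAC cells, 116 with a filter of 200 CPM and 1126 with 10 CPM; the lower count was 145 and 896 with these filters and 214 against cells with both collagens. Lists with a median of at least 1 numbered 4, and lists at most -1 numbered 3. The first count was 2 against COL2A1-only cyAC cells, with the mean of per-cell CPM, with 200 CPM and without the deepest 10% of cells. It was also 2 after thinning and against cells with both collagens, where the second count was 1. Both counts include lists with genes that reached 50 CPM in 1 group alone, among them the elastic fibre, cycling, hypertrophy and inflammatory lists. The filter fixed the sign of such genes. The share of COL1A1-only cells was 33.1% with at least 500 COL1A1 reads and 58.75% with COL2A1 counted from 500 reads; the members formed 1 cluster at resolution 0.2.

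Against cells with both collagens (chosen after seeing the data), values turned for the inflammatory list (1.505, over 6 of its genes), ACTG1 (0.40), COL1A2 (-0.49), COL5A2 (-0.10), ELN (-1.62), FOS (-0.32), HBEGF (1.39), IGFBP7 (-0.78), SMAD7 (0.28), SOD2 (2.03), TAGLN (2.22), TGFBI (-0.0044), TIMP3 (1.13) and WIF1 (1.77). CTSB became 1.10 against COL2A1-only cyFT cells, 1.63 against those of cyAC and 0.70 without the cells that hold neither collagen (also chosen after seeing the data). Against cyAC, TAGLN became 2.16 and VCAM1 -2.06. PRG4 became -3.36 with at least 500 COL1A1 reads, -1.19 with the mean of per-cell CPM, -1.13 after thinning and -2.69 without its 2 richest cells (chosen after seeing the data). Leaving out the cell richest in a gene on either side (chosen after seeing the data) turned no gene past the fold, but took DCN (-0.99), SKIL (-0.95), TIMP2 (0.99) and IGFBP4 (0.92) inside it and 12 others past it. The cycling list, a median of 2 genes, became -0.14 after thinning, with 1 gene compared. The causes were not tested. Counts come from 1 library, genes of few reads are limited by depth, and listed zeros can be corrected background.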
